A study of Mus musculus with 2 samples.

Results

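The S phase and mitosis genes described here are 39 mouse genes, 17 that act while DNA is copied and 22 that act while the duplicated chromosomes are separated. They were taken from a fixed list of names, and all 39 had a row among the 28000 features of both libraries. They were read in cells with over 200 and under 7000 detected genes and under 15% mitochondrial UMIs, where a UMI (unique molecular identifier) marks 1 captured RNA molecule. The 39 genes lie on 16 chromosomes of the GRCm38 assembly.

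Before a cell divides, MCM helicases are loaded on origins of replication and fired, the sliding clamp PCNA holds the polymerases on DNA, and enzymes of nucleotide synthesis supply the building blocks. Most of these genes are switched on by E2F factors at the passage from G1 into S phase. The mitotic genes peak later, in G2 and M, and many are held down in resting cells by the DREAM complex and induced by MYB and FOXM1 factors. Replication genes can also be expressed in cells that never reach mitosis, because DNA repair and licensing use the same proteins. In the adult mouse prostate few luminal or basal epithelial cells divide.

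Single-cell RNA-seq was performed on prostate tumour tissue of 2 genotypes, with 1 library for each. DoubleTg mice (hHGFtg:H11 hMET/+:PB Cre4), labelled prostatic adenocarcinoma, expressed a human HGF transgene throughout the body and a human MET transgene (hMETtg) behind a CAG promoter and a STOP cassette, which Cre under a probasin promoter removes in prostate epithelium. TripleTg mice, labelled prostatic carcinoma, carried the same alleles and in addition Ctnnb1 L(Ex3)/+, an allele that yields stabilised β-catenin after Cre. The ages of these mice and whether tissue was pooled were not given in the sources used here. Genotype, mouse, tumour stage and library cannot be told apart, and no difference below has a replicate check or a p-value.

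Of 12072 DoubleTg cells 10598 (87.8%) were kept, and all 9492 TripleTg cells were kept, since the limits had been applied before deposit. The kept cells had a median of 16761 and 20097 UMIs. The libraries shared 30 cell barcodes. Cells were compared at equal depth after thinning each to 5000 UMIs, and shallower cells were left out. Cell classes were rebuilt here from marker genes and carry the ending -like. They need not match the study's own labels cell by cell. Of the cells deep enough, epithelial-like cells numbered 6752 in DoubleTg (968 shallower cells left out) and 6332 in TripleTg (262 left out). Levels are given as CPM, the UMIs of a gene scaled to all thinned UMIs of the class. The 3′ chemistry counts each molecule once, so CPM is not divided by gene length. Intervals are 95% and cover counting error only.

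Mitotic and S-phase genes were compared first in the epithelial-like cells, which hold the luminal-like and basal-like classes, 88 and 554 seminal vesicle-like cells, and 45 further DoubleTg cells of a small cluster led by Atp6v1g3. The 22 mitotic genes together stood at 24.1 CPM (22.5 to 25.8) in DoubleTg and 122.7 CPM (118.9 to 126.7) in TripleTg, a log2 ratio of TripleTg over DoubleTg of 2.35 (2.24 to 2.46). The 17 S-phase genes stood at 98.6 CPM (95.3 to 102.0) and 137.7 CPM (133.7 to 141.9), a log2 ratio of 0.48 (0.42 to 0.55). Per S-phase UMI there were thus 0.244 mitotic UMIs (0.226 to 0.264) in DoubleTg and 0.891 (0.853 to 0.931) in TripleTg. In DoubleTg the S-phase genes outweighed the mitotic genes, and in TripleTg the sums of the lists came close to each other. A 2-fold higher level in TripleTg was reached by 21 of 22 mitotic genes and 7 of 17 S-phase genes, against 12.2% of 13008 genes with at least 30 UMIs over both libraries. No member was 2-fold lower, against 14.3% of those genes. The median log2 ratio was 2.48 for the mitotic genes, 0.89 for the S-phase genes and -0.15 for all genes.

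**Figure D1:**
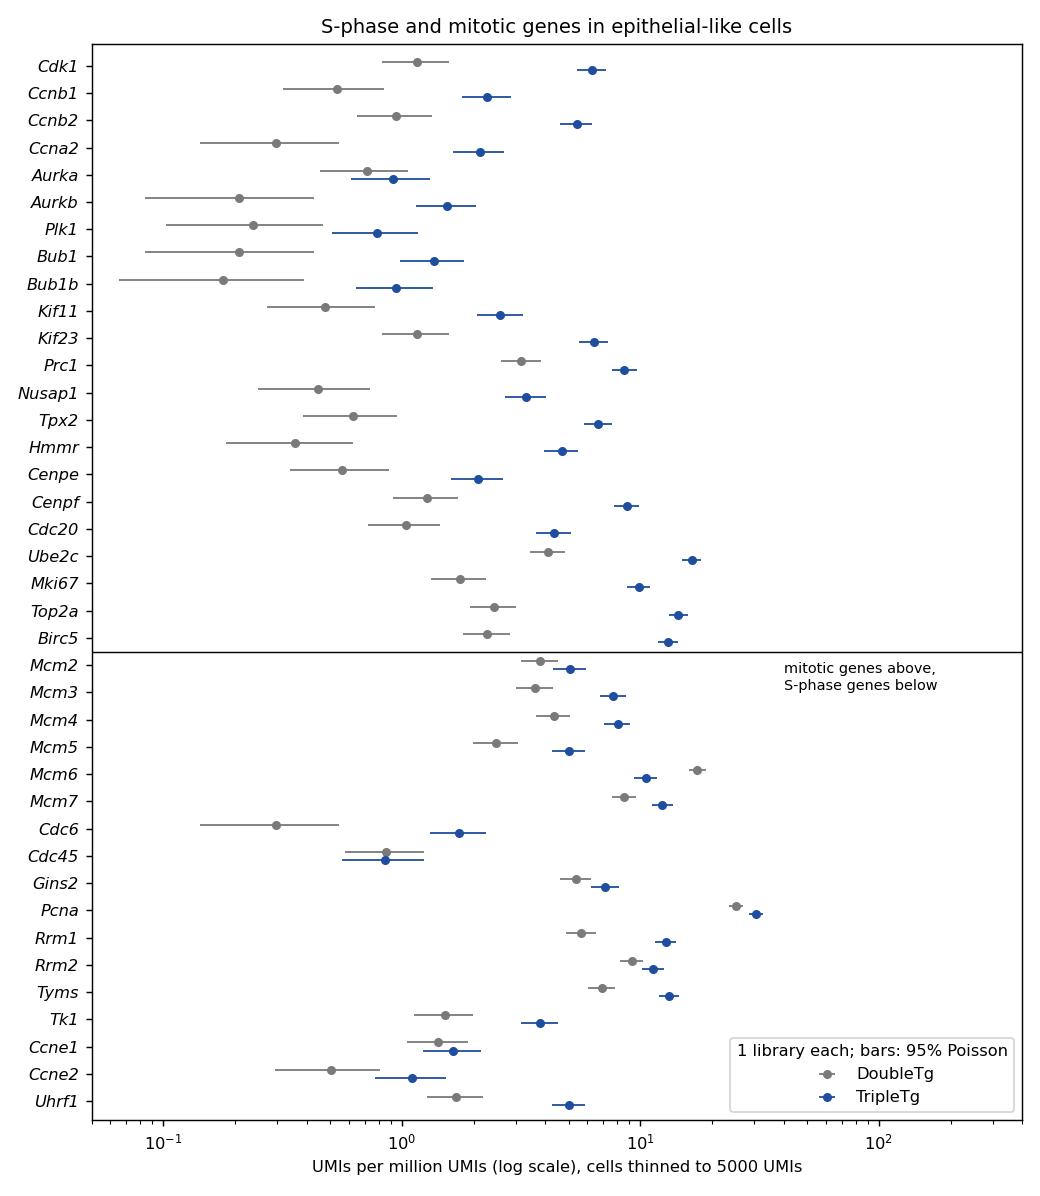
Level of each of the 39 genes in epithelial-like cells of both libraries, in CPM on a log scale, with 95% Poisson intervals. Counts are thinned. The TripleTg points lie to the right of the DoubleTg points for all 22 mitotic genes, with overlapping intervals for Aurka. Mcm6 is the S-phase gene that lies clearly to the left.

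Among the mitotic genes the 4 genes for cyclins and Cdk1 had 99 UMIs in DoubleTg and 508 in TripleTg, a log2 ratio of 2.45 (2.14 to 2.78). Cdk1, the kinase that drives entry into mitosis (chr10:69335146-69352938), had 39 UMIs in DoubleTg and 198 in TripleTg, a log2 ratio of 2.44 (1.94 to 2.97). Its partners Ccnb1 and Ccnb2, the B cyclins, had log2 ratios of 2.09 (18 against 72 UMIs) and 2.51 (32 against 171 UMIs). Ccna2, cyclin A2, which acts from S phase onward, had 10 UMIs in DoubleTg and 67 in TripleTg, a log2 ratio of 2.84 (1.87 to 3.96). The 4 genes thus differed between the libraries by similar amounts, with overlapping intervals.

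The mitotic kinases were the least abundant group, with 52 UMIs over 5 genes in DoubleTg and 176 in TripleTg, a log2 ratio of 1.85 (1.40 to 2.33). Aurka, the Aurora A kinase of the spindle poles, had 24 and 29 UMIs, a log2 ratio of 0.37 (-0.47 to 1.21). After thinning it was the only mitotic gene under 2-fold. Without thinning, and with shallower cells included, Aurka stood at 0.563 CPM (0.47 to 0.668) in DoubleTg and 1.24 CPM (1.09 to 1.40) in TripleTg. These levels had separate intervals, so the low thinned ratio is not read as a lack of difference. Aurkb, the Aurora B kinase of the chromosomal passenger complex, had 7 and 49 UMIs, a log2 ratio of 2.90 (1.75 to 4.29). After thinning the ratio intervals of Aurka and Aurkb did not overlap. Plk1, a kinase needed for centrosome maturation and mitotic exit, and the spindle checkpoint kinases Bub1 and Bub1b had 6 to 8 UMIs each in DoubleTg and 25 to 43 in TripleTg.

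The 6 spindle motors and microtubule binders together had 210 and 1019 UMIs, a log2 ratio of 2.37 (2.16 to 2.59), and held both the highest single ratios and one of the lower. Hmmr, a microtubule-binding protein of the spindle (chr11:40701395-40733422), had 12 UMIs in DoubleTg and 148 in TripleTg, a log2 ratio of 3.72 (2.87 to 4.70). Tpx2, which activates Aurora A and nucleates spindle microtubules (chr2:152847964-152895321), had 21 and 211 UMIs, a log2 ratio of 3.42 (2.77 to 4.14). Prc1, which bundles midzone microtubules, lay lowest in this group, with 107 and 271 UMIs and a log2 ratio of 1.43 (1.11 to 1.77). Kif11, the kinesin that pushes the spindle poles apart, Kif23, a kinesin of the central spindle, and Nusap1, which stabilises spindle microtubules, lay between them at log2 ratios of 2.45, 2.47 and 2.90.

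Of the remaining mitotic genes, Ube2c, the ubiquitin-conjugating enzyme of the anaphase-promoting complex (APC/C), was the most abundant in both libraries, with 4.09 CPM in DoubleTg and 16.4 CPM in TripleTg. Top2a, the topoisomerase that untangles sister chromatids (chr11:98992943-99024189), had 82 and 457 UMIs, a log2 ratio of 2.57 (2.23 to 2.93). Mki67, whose protein coats mitotic chromosomes, had 59 and 312 UMIs, a log2 ratio of 2.5 (2.09 to 2.92). Birc5, the survivin subunit of the passenger complex, the kinetochore genes Cenpe and Cenpf, and Cdc20, the APC/C activator, had log2 ratios of 2.52, 1.89, 2.79 and 2.06. Leaving out any 1 mitotic gene kept the summed log2 ratio between 2.31 and 2.45, so no gene of the list carried it alone.

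The S-phase genes were spread more widely. The 6 MCM helicase genes had 1352 UMIs in DoubleTg and 1540 in TripleTg, a log2 ratio of 0.28 (0.17 to 0.39). Mcm6 (chr1:128331590-128359664) had 584 and 333 UMIs, 17.3 and 10.5 CPM, a log2 ratio of -0.72 (-0.92 to -0.52). It was the most abundant of the MCM genes in DoubleTg and the only S-phase gene whose interval lay below 0. The other MCM genes were higher in TripleTg, from Mcm2 at 0.42 (0.07 to 0.76) through Mcm7 at 0.53, Mcm4 at 0.89 and Mcm5 at 1.01 to Mcm3 at 1.09 (0.77 to 1.41). These 6 proteins form a single hexamer, and the log2 ratios of their mRNAs ran from -0.72 to 1.09. Without Mcm6 the summed log2 ratio of the S-phase list was 0.65 instead of 0.48.

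Among the factors that load and activate the helicase, Cdc6, which loads MCM on origins, had 10 UMIs in DoubleTg and 55 in TripleTg, a log2 ratio of 2.55 (1.57 to 3.69), the largest of the S-phase list. That ratio was 1.18 at 10000 UMIs per cell. Gins2, a subunit of the active helicase, had a log2 ratio of 0.41 (0.12 to 0.70). Cdc45, another subunit, had 29 and 27 UMIs, a log2 ratio of -0.010 (-0.82 to 0.80), which spans changes in both directions.

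Pcna, the sliding clamp, was the most abundant of the 39 genes in both libraries, at 25.2 and 30.5 CPM, a log2 ratio of 0.28 (0.14 to 0.41). The nucleotide supply genes together had a log2 ratio of 0.82 (0.69 to 0.95). Within that group Tk1, the salvage thymidine kinase, had 1.33 (0.84 to 1.83), Rrm1, the large subunit of ribonucleotide reductase, had 1.18 (0.93 to 1.44) and Tyms, thymidylate synthase, had 0.94 (0.70 to 1.17). Rrm2, the small subunit of ribonucleotide reductase, had 311 and 359 UMIs and a log2 ratio of 0.30 (0.08 to 0.52), below its partner Rrm1. This pooled Rrm2 ratio was under those of luminal-like cells (0.53) and basal-like cells (0.64). In DoubleTg Rrm2 stood at 19.6 CPM in basal-like and 5.48 CPM in luminal-like cells, and basal-like cells numbered 1726 in DoubleTg and 1087 in TripleTg. The part of class make-up in the pooled ratio was not tested. Uhrf1, which carries DNA methylation over to the new strand (chr17:56303321-56323486), had 57 and 159 UMIs, a log2 ratio of 1.57 (1.13 to 2.04). The E cyclins Ccne1 and Ccne2, which start S phase, had log2 ratios of 0.21 (-0.39 to 0.81) and 1.13 (0.26 to 2.06).

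Wider lists of the same processes, which hold no member, were read beside these. A scarce gene reaches 30 UMIs over both libraries through the library where it is high, so nothing is read from the counts of 2-fold genes in these wider lists. Their summed ratios hold all listed genes with a feature. Of 41 further replication genes, 38 had at least 30 UMIs, with 10 at 2-fold higher (12.2% of all genes tested) and 1 at 2-fold lower (14.3% of all), and the summed log2 ratio was 0.37 (0.33 to 0.42). The highest were E2f2, an E2F activator, Rad51ap1, a repair factor, and E2f8, an atypical E2F repressor, at 3.57, 2.61 and 2.52. All of these passed the limit through their TripleTg counts. In luminal-like cells they had 7, 4 and 8 UMIs in DoubleTg and 76, 33 and 59 in TripleTg. The lowest were Ung, which removes uracil from DNA, the helicase subunit gene Gins1, and Wdr76, at -1.47, -0.73 and -0.59. Of 47 further mitosis genes, 46 had a feature and 38 had at least 30 UMIs, with 27 at 2-fold higher and none at 2-fold lower, against the same 12.2% and 14.3%, and the summed log2 ratio was 1.1 (1.04 to 1.15). Racgap1, the partner of Kif23 in the central spindle, Cenpa, the centromeric histone, and Kif20b, a kinesin of cytokinesis, were highest at 3.37, 2.91 and 2.87. Ncaph, a condensin subunit, was lowest at -0.62 (-0.99 to -0.24), followed by Cdca2 at 0.015 and Mybl2, a subunit of the MYB complex, at 0.093.

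The promoters of 4 members are shown because motifs of the factors named above can be read in them. The capitals mark the letters TTTGAA (the cell-cycle homology region bound by DREAM), CCAAT (bound by NF-Y) and the E2F word TTGGCGC with its variant TTCCCGC, its variant TTGCCGC and its variant TTCGCGC, each on either strand, so that the complements TTCAAA and likewise ATTGG are also capital. Sequences are from RefSeq on GRCm38.p6, 150 bases each, read in the direction of the gene and ending before its annotated start. Cdk1 (chr10:69352939-69353088, minus strand) and Top2a (chr11:99024190-99024339, minus strand) stand for the mitotic list, and Mcm6 (chr1:128359706-128359855, minus strand) and Uhrf1 (chr17:56303171-56303320, plus strand) for the S-phase list.
Cdk1: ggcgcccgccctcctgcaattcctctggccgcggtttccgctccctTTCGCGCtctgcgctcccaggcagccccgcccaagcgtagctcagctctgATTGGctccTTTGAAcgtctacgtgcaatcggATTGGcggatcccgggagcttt
Top2a: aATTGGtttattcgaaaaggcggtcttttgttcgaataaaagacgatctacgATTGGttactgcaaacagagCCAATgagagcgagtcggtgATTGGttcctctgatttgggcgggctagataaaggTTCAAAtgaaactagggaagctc
Mcm6: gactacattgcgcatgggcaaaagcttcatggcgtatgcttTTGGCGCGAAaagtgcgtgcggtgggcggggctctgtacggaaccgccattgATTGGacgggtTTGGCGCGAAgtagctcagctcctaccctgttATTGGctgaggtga
Uhrf1: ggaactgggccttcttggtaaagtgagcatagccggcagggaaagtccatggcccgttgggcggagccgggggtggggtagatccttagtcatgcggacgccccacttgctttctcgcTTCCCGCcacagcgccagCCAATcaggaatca
The Mcm6 stretch held 4 E2F words, in 2 overlapping pairs, and no TTTGAA, and the Top2a stretch held 1 TTTGAA, 4 CCAAT and no E2F word. Over windows from 250 bases before to 50 after the start, TTTGAA was found in 14 of 19 mitotic genes with a promoter in the table (73.7%) and 2 of 14 S-phase genes (14.3%), against 17.9% of 32851 promoters. An E2F word was found in 4 of 19 mitotic genes (21.1%) and 8 of 14 S-phase genes (57.1%), against 9.57% of all promoters. CCAAT was found in 17 of 19 (89.5%) and 10 of 14 (71.4%), against 37.4%. Mcm4, Gins2, Ccne2, Ccna2, Tpx2 and Aurkb had no entry. A match is a description of the letters, not a bound site.

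The next comparison asked whether luminal-like and basal-like cells differed in the same way between the libraries. In luminal-like cells (4893 DoubleTg and 4691 TripleTg) the summed log2 ratio was 2.44 (2.32 to 2.57) for the mitotic genes and 0.83 (0.75 to 0.91) for the S-phase genes. All 22 mitotic genes had a higher level in TripleTg, 21 of them with an interval above 0. All 17 S-phase genes had 30 UMIs, and 10 of them were 2-fold higher, against 13.5% of 12244 genes, and none 2-fold lower, against 14.9%. In basal-like cells (1726 and 1087) the mitotic ratio was 2.25 (2.0 to 2.5), while the S-phase ratio was -0.12 (-0.26 to 0.014), so the S-phase sum was not higher in TripleTg. Without Mcm6 that ratio was 0.069 (-0.074 to 0.21). Of all 22 mitotic genes 21 had a higher level in TripleTg basal-like cells, 14 with an interval above 0, and of all 17 S-phase genes 6 had a higher level, 4 with an interval above 0, and 11 a lower level, 3 with an interval below 0. Only 9 mitotic and 11 S-phase genes had 30 UMIs there. Most of these 9 passed through their TripleTg counts, so nothing is read from the 8 that were 2-fold higher, against 15.5% of 10177 genes. Among the 11 S-phase genes Rrm1 alone was 2-fold higher and Mcm6 alone 2-fold lower, against 13.1% lower. The other 13 mitotic genes had 0 to 11 UMIs in DoubleTg and 1 to 21 in TripleTg, and the other 6 S-phase genes 3 to 18 and 2 to 12.

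**Figure D2:**
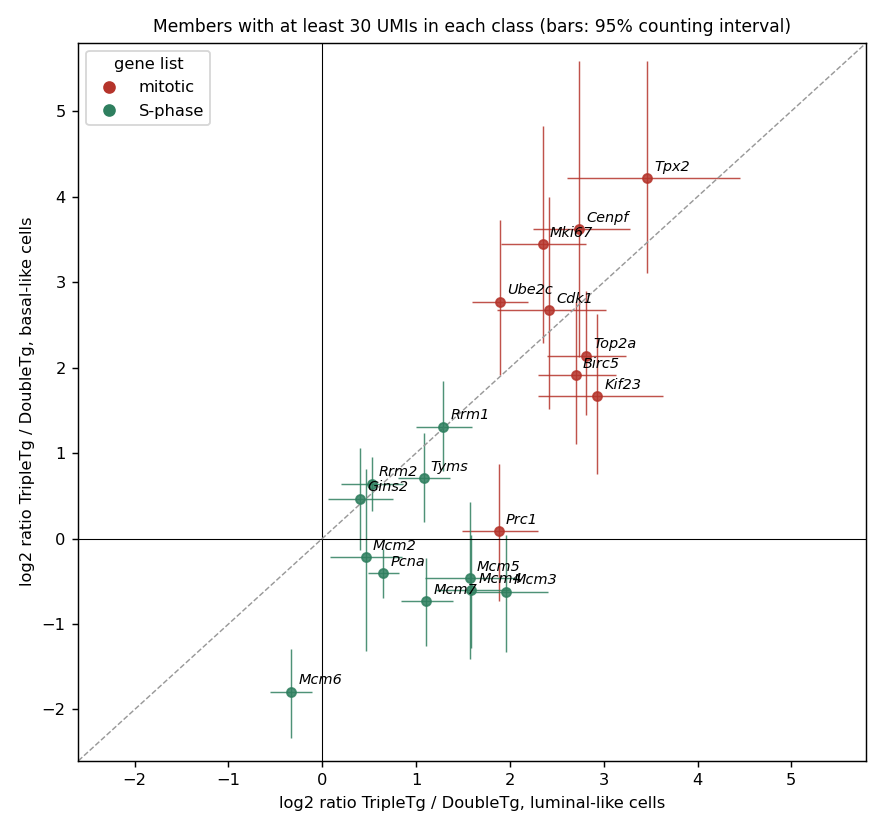
Log2 ratio of TripleTg over DoubleTg in luminal-like cells (x axis) and basal-like cells (y axis) for the 20 members with at least 30 UMIs in each class, with 95% counting intervals and a dashed line where both are equal. The 13 mitotic genes with fewer UMIs in basal-like cells are not drawn, and most of the 9 drawn passed through their TripleTg counts, so their position is not read. 5 MCM genes and Pcna lie above 0 in luminal-like and below 0 in basal-like cells, and Mcm6 lies below 0 in both. Counts are thinned, and without thinning the luminal-like Mcm6 levels of the libraries had overlapping intervals.

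Single MCM genes were then compared between the classes. Mcm3 had 56 UMIs in DoubleTg and 209 in TripleTg luminal-like cells, a log2 ratio of 1.96 (1.53 to 2.41), and 66 against 27 UMIs in basal-like cells, a log2 ratio of -0.62 (-1.33 to 0.044). Mcm7 had 1.11 (0.84 to 1.39) in luminal-like and -0.74 (-1.26 to -0.23) in basal-like cells. Mcm6 was lower in TripleTg in both, by -0.33 (-0.56 to -0.11) and by -1.79 (-2.33 to -1.29). The basal-like cells sat in different clusters in each library, and 540 of the 1087 TripleTg cells were in a cluster led by Ivl with 0 basal markers among its 10 leading genes. The TripleTg luminal-like clusters likewise had 0 luminal markers among theirs, and those of DoubleTg 0 or 1, since these classes were named from marker levels and not from leading genes. In the TripleTg basal-like cluster led by Krt15 and Krt14 the Mcm6 level was 13.9 CPM, against 26.0 and 23.1 CPM in the DoubleTg basal-like clusters. In basal-like cells the intervals of Mcm6 and Mcm7 lay below 0, and those of Mcm2, Mcm3, Mcm4 and Mcm5 included 0. Summed over the 6 genes the log2 ratio was 0.75 (0.62 to 0.88) in luminal-like cells and -0.97 (-1.23 to -0.72) in basal-like cells, where Mcm6 gave 209 of 523 DoubleTg and 38 of 168 TripleTg UMIs. The level in DoubleTg basal-like cells was 60.6 CPM, above the 33.3 CPM of DoubleTg luminal-like cells, and the order was opposite in TripleTg, 30.9 against 56.0 CPM.

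Pcna had 0.65 (0.49 to 0.82) in luminal-like and -0.40 (-0.69 to -0.12) in basal-like cells. The nucleotide supply genes together had log2 ratios of 1.03 (0.87 to 1.19) and 0.84 (0.60 to 1.07). Rrm1 was higher in TripleTg in both classes, at 1.29 (1.0 to 1.6) and 1.31 (0.79 to 1.84), and Tyms at 1.08 and 0.71. Rrm2 was higher at 0.53 (0.20 to 0.86) and 0.64 (0.32 to 0.96). In basal-like cells Mcm6, Mcm7 and Pcna were thus lower and Rrm1, Rrm2 and Tyms higher in TripleTg, by intervals that leave out 0. Tk1 was also higher there, at 2.25 (0.53 to 4.34), on 4 DoubleTg and 12 TripleTg UMIs. Among TripleTg basal-like clusters the Rrm2 level was highest in the Ivl-led one, and the basal-like Rrm2 ratio without it was not computed. Prc1 among the mitotic genes had 1.88 (1.49 to 2.30) in luminal-like and 0.082 (-0.73 to 0.87) in basal-like cells. Whether the classes differ in these ratios was not tested, since each library is 1 sample.

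Cells were then classed by how many genes of each list they held. With 5000 UMIs per cell, 3 or more mitotic genes were detected in 0.652% of the DoubleTg epithelial-like class (44 of 6752, 0.474 to 0.874) and in 4.83% of the TripleTg class (306 of 6332, 4.32 to 5.39). For 3 or more S-phase genes the shares were 1.66% (1.37 to 1.99) and 4.75% (4.24 to 5.31). In DoubleTg more cells passed for S-phase genes than for mitotic genes, and in TripleTg the shares were nearly equal, but this order depended on depth and on the number of genes asked for. At 2000 UMIs both DoubleTg shares were 0.351% and those of TripleTg 2.66% for mitotic and 1.48% for S-phase genes. At 10000 UMIs the TripleTg shares were 6.64% and 10.7%, and at 5 or more genes 3.22% and 1.78%. Without thinning the mitotic shares were 2.19% and 10.9% and the S-phase shares 27.7% and 32.8%, which shows how far the S-phase share depends on depth. Counts of 2 or 3 mitotic genes, next to the limit, were found in 38 and 161 cells, so the class is a range and not a cell-cycle phase. At the other end, 10 or more mitotic genes were detected in 3 DoubleTg and 43 TripleTg cells. The DoubleTg share rested on the limit of 7000 genes: with the 421 DoubleTg cells of 7000 genes or more counted it was 1.1%, and such TripleTg cells were not analysed here.

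In luminal-like cells the mitotic share was 0.777% (0.550 to 1.06) in DoubleTg and 5.63% (4.99 to 6.33) in TripleTg, and the S-phase share was 1.14% (0.866 to 1.48) and 5.54% (4.91 to 6.24). In basal-like cells the mitotic share was 0.348% (0.128 to 0.755) and 3.04% (2.10 to 4.24), whereas the S-phase share was 3.19% (2.41 to 4.13) and 2.94% (2.02 to 4.13). DoubleTg basal-like cells thus had 55 cells with 3 or more S-phase genes and 6 with 3 or more mitotic genes, and 44 of those 55 had no mitotic gene at all. The median depth of DoubleTg basal-like cells before thinning, 13082 UMIs, was below the 36077 UMIs of DoubleTg luminal-like cells. The part of that gap in the shares was not tested beyond thinning.

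**Figure D3:**
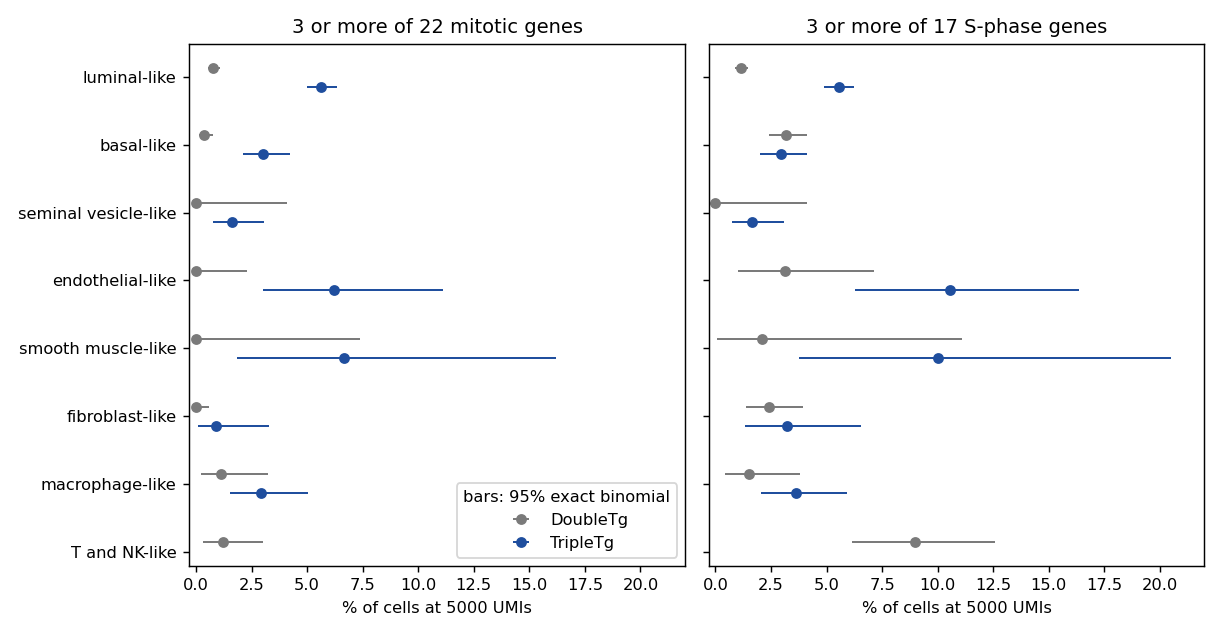
Percent of cells with 3 or more mitotic genes (left) and 3 or more S-phase genes (right) at 5000 UMIs per cell, by class and library, with 95% exact binomial intervals. Luminal-like TripleTg cells lie above DoubleTg on both sides, basal-like cells only on the left, and no TripleTg cluster was named T and NK-like.

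Cells that held genes of both lists were counted next. Cells with 3 or more genes of both lists made up 0.222% (0.124 to 0.366) of DoubleTg and 2.13% (1.79 to 2.52) of TripleTg epithelial-like cells. Among cells with 3 or more mitotic genes, 34.1% (20.5 to 49.9) in DoubleTg and 44.1% (38.5 to 49.9) in TripleTg also had 3 or more S-phase genes, and these intervals overlap. Across cells, summed S-phase and mitotic UMIs had a Spearman correlation of 0.08 over 6752 DoubleTg cells and 0.22 over 6332 TripleTg cells, where most cells hold no mitotic UMI. In cells with 3 or more mitotic genes the S-phase level was 704.5 CPM (598.0 to 824.6) in DoubleTg and 708.5 CPM (666.9 to 752.0) in TripleTg. Those values agree within counting error. These cells were deeper than the rest before thinning, with medians of 41094 and 39608 UMIs against 27754 and 25802.5 UMIs in cells without a mitotic gene.

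Cells with 3 or more mitotic genes held 4.66% of the S-phase UMIs of DoubleTg epithelial-like cells and 24.9% of those of TripleTg, so most lay outside them in both. Cells with no mitotic gene held 85.95% of S-phase UMIs in DoubleTg and 58.0% in TripleTg epithelial-like cells. Their S-phase level was 90.7 CPM (87.4 to 94.1) in DoubleTg and 96.7 CPM (93.0 to 100.5) in TripleTg, a log2 ratio of 0.092 (0.014 to 0.17). In the same cells the ratio was 0.39 (0.29 to 0.48) for luminal-like and -0.25 (-0.41 to -0.099) for basal-like cells. Mcm6 in cells with no mitotic gene had 16.4 CPM in DoubleTg and 7.30 CPM in TripleTg, and Pcna had 24.7 and 27.4 CPM. The lower Mcm6 level of TripleTg was therefore present in cells without mitotic genes, which held 516 of its 584 DoubleTg UMIs and 191 of its 333 TripleTg UMIs.

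**Figure D4:**
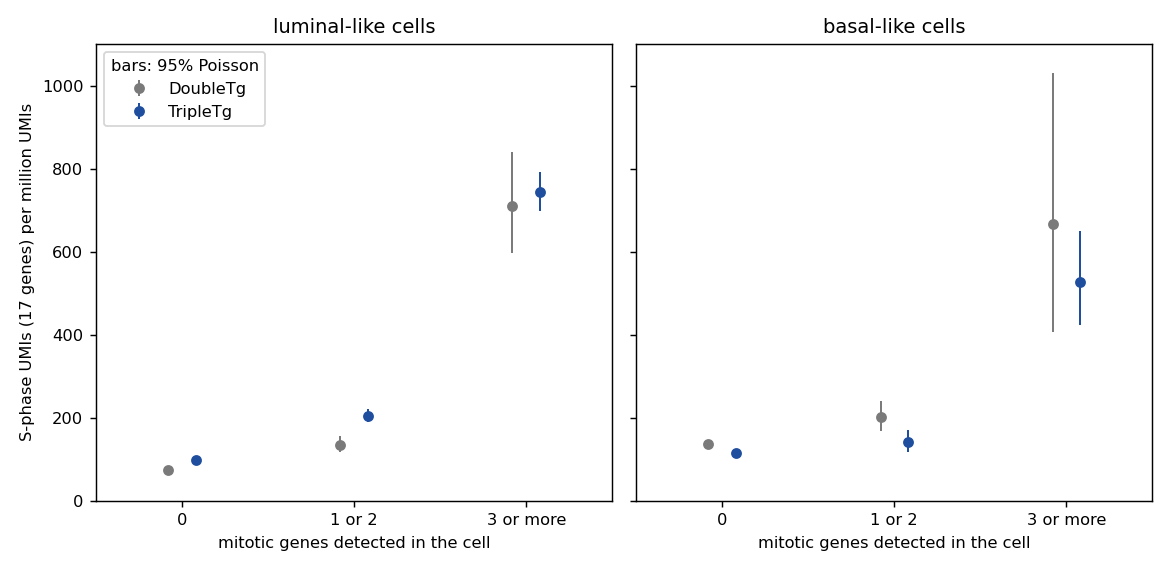
Summed level of the 17 S-phase genes, in CPM, in cells with 0, with 1 or 2 and with 3 or more mitotic genes, for luminal-like (left) and basal-like cells (right), with 95% Poisson intervals. The level is higher with more mitotic genes in both libraries, and in basal-like cells without a mitotic gene DoubleTg lies above TripleTg, 136.7 against 114.8 CPM.

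The members differed in how tightly they were held to cells with other mitotic genes. Of the TripleTg epithelial-like cells with an Hmmr UMI, 78.3% (69.6 to 85.4) had 3 or more other mitotic genes, and the share was 78.2% for Nusap1 and 77.2% for Cenpe. At the low end of the mitotic list were Kif23 at 42.5% (35.1 to 50.2), Aurka at 44.4% (25.5 to 64.7) and Tpx2 at 49.1% (41.2 to 57.0). Hmmr-positive cells were thus rarely isolated, and 79 of 174 Kif23-positive cells had no other mitotic gene. Among S-phase genes Tk1 came highest at 45.1% (35.6 to 54.8), followed by Cdc45 at 40%, Uhrf1 at 37.9% and Mcm5 at 37.4%. Pcna came lowest at 9.87% (7.94 to 12.1), with Gins2 at 11.9% and Mcm2 at 14.2%. The range of the S-phase list overlapped that of the mitotic list only through Tk1, Aurka and Kif23.

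The same shares were read in DoubleTg. Top2a-positive cells had 3 or more other mitotic genes in 17 of 73 cases (23.3%, 14.2 to 34.7) in DoubleTg and 164 of 281 (58.4%, 52.4 to 64.2) in TripleTg. Mki67 had 20 of 42 (47.6%, 32.0 to 63.6) and 136 of 208 (65.4%, 58.5 to 71.8), with overlapping intervals. For Mcm6 the share was 1.95% (0.939 to 3.56) of 513 DoubleTg cells and 21.5% (16.9 to 26.6) of 289 TripleTg cells, and for Pcna 1.29% of 775 and 9.87% of 841 cells. For Top2a, Mcm6 and Pcna the intervals of the libraries did not overlap. Cells with 3 or more mitotic genes were themselves rarer in DoubleTg, at 0.652% against 4.83%, and the part of this in the shares was not tested.

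**Figure D5:**
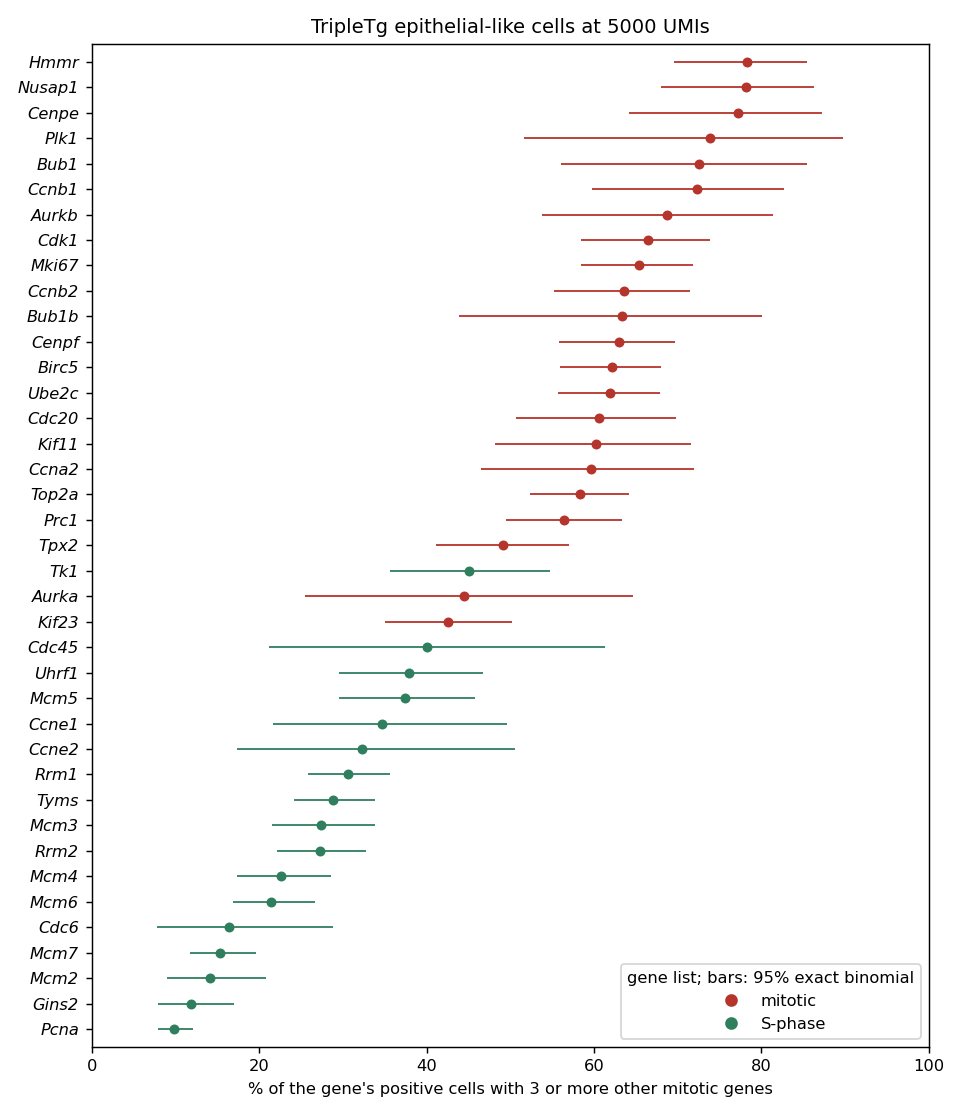
For each member, the percent of TripleTg epithelial-like cells with its UMI that also had 3 or more other mitotic genes, with 95% exact binomial intervals. Mitotic genes lie between 42.5% (Kif23) and 78.3% (Hmmr) and S-phase genes between 9.87% (Pcna) and 45.1% (Tk1).

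Clusters within the classes differed in the members as well. Clusters were found in each library separately and without cell-cycle genes, and the differences between them are given as a description. In TripleTg a luminal-like cluster of 459 cells, led by Apoc4 and Lap3 and then by Top2a, Birc5 and Ube2c, had the highest shares, 17.7% with mitotic and 13.1% with S-phase genes. The other TripleTg luminal-like clusters lay between 0.980% and 6.50% for mitotic genes, with 1.24% in a cluster led by Tchh and Cnfn, genes of cornified cells. DoubleTg luminal-like clusters lay between 0% and 1.21%. A DoubleTg cluster led by Sbp and Sbpl, which encode secreted spermine-binding proteins, had neither 3 mitotic nor 3 S-phase genes in any of 490 cells, which allows a share of up to 0.612%. Leaving out the cluster of 459 cells gave a TripleTg mitotic share of 3.83% and a summed mitotic log2 ratio of 2.10.

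Tpx2, Rrm2 and Mcm6 are described by cluster, a choice made after their values were seen. In a TripleTg basal-like cluster of 540 cells led by Ivl, Ifi202b and Il33, Tpx2 stood at 21.1 CPM (16.0 to 27.4), against 0.619 to 13.1 CPM over the TripleTg luminal-like clusters. Tpx2 was detected in 8.19% (5.86 to 11.1) of the cells of that cluster with no other mitotic gene, and in at most 1.11% of such cells in any luminal-like cluster. A second TripleTg basal-like cluster, led by Mt4 and Igfbp2, had Tpx2 in 4.76% (2.48 to 8.17) of such cells, and the DoubleTg basal-like clusters in 0% and 0.505%. Rrm2 in the Ivl-led cluster stood at 45.9 CPM (38.2 to 54.8), and 15.7% (12.4 to 19.5) of its cells without a mitotic gene had an Rrm2 UMI. In DoubleTg basal-like clusters that share was 8.75% and 7.72%, and in the DoubleTg luminal-like clusters 1.03% to 2.99%. Over both libraries the basal-like clusters lay between 4.58% and 15.7% and the luminal-like clusters between 0% and 2.99%.

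Mcm6 was spread differently over the same clusters. It stood at 26.0 and 23.1 CPM in the DoubleTg basal-like clusters, and in TripleTg at 13.9 CPM in a cluster led by Krt15 and Krt14, 7.04 CPM in the Ivl-led cluster and 0.694 CPM (0.0176 to 3.87) in the Mt4-led cluster. In luminal-like clusters it ranged from 4.08 to 24.3 CPM in DoubleTg and from 0.619 to 35.3 CPM in TripleTg, so the ranges overlapped. The highest TripleTg value, 35.3 CPM (20.9 to 55.8), was in a cluster of 102 cells led by Reg3b and Reg1 in which 1 cell had 3 mitotic genes.

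Outside the epithelium, lists were summed in endothelial-like, macrophage-like and fibroblast-like cells, and the mitotic ratio was highest in the endothelial-like cells. Their mitotic genes had 16 UMIs in 160 DoubleTg cells and 216 UMIs in 161 TripleTg cells, a log2 ratio of 3.75 (3.01 to 4.58), while the S-phase genes had 213 and 219 UMIs, a log2 ratio of 0.031 (-0.25 to 0.31). Cells with 3 or more mitotic genes were 0 of 160, which allows a share of up to 1.88%, and 10 of 161 (6.21%, 3.02 to 11.1). For 3 or more S-phase genes they were 5 of 160 (3.1%, 1.02 to 7.14) and 17 of 161 (10.6%, 6.27 to 16.4), with overlapping intervals. DoubleTg endothelial-like cells therefore had a high S-phase level with hardly any mitotic UMIs, and 92 of the 213 S-phase UMIs were Pcna and 40 were Mcm3. Only 2 mitotic genes had 30 UMIs in this class, Cdk1 at 2 against 30 UMIs and Top2a at 2 against 28. Both passed through their TripleTg counts, so nothing is read from their being 2-fold higher, against 7.59% of 5732 genes. Of all 22 mitotic genes 22 had a higher level in TripleTg, 11 with an interval above 0. None of the 4 S-phase genes tested was 2-fold higher or lower, against 7.92% lower.

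T and NK-like cells, named in DoubleTg only (a TripleTg cluster led by Ccl5 and Gzma also held mast cell genes and stayed unnamed), had the highest S-phase share of that library, 30 of 334 cells (8.98%, 6.14 to 12.6), with a mitotic share of 1.20% (0.327 to 3.04). Mcm6 led their S-phase genes at 66.5 CPM (54.7 to 80.0). Macrophage-like cells had mitotic shares of 1.12% (0.232 to 3.25) and 2.91% (1.51 to 5.03), which overlap, and a summed mitotic log2 ratio of 1.31 (0.94 to 1.71) with 0.63 (0.33 to 0.93) for the S-phase genes. Of all 22 mitotic genes 19 had a higher level in TripleTg, 5 with an interval above 0. Of 3 with 30 UMIs, Top2a and Birc5 were 2-fold higher, against 13.0% of 6812 genes, but both passed through their TripleTg counts and nothing is read from this. Of 3 S-phase genes none was 2-fold higher or lower, against 4.96% lower. Fibroblast-like cells had 0 of 620 DoubleTg cells with 3 mitotic genes, which allows up to 0.484%, and 2 of 217 in TripleTg. Their summed log2 ratio was 0.95 (0.43 to 1.45) for the mitotic genes and -0.35 (-0.62 to -0.087) for the S-phase genes, and the latter rested on Rrm2, without which it was -0.029 (-0.32 to 0.25). Rrm2 in DoubleTg fibroblast-like cells had 135 UMIs over 64 cells, 43.6 CPM (36.5 to 51.5), against 8.3 CPM (3.79 to 15.8) in TripleTg. It was the only one of 6 S-phase genes tested that was 2-fold lower, against 9.06% of 8417 genes. Rrm2 passed through its DoubleTg counts, so nothing is read from this. None of the 6 was 2-fold higher, against 7.87%. Smooth muscle-like cells had 0 of 48, which allows up to 6.25%, and 4 of 60 (6.67%, 1.85 to 16.2), and seminal vesicle-like cells 0 of 88 and 9 of 554 (1.63%, 0.746 to 3.06). In seminal vesicle-like cells 2 S-phase genes had 30 UMIs. Pcna had 1 UMI in DoubleTg and 33 in TripleTg, a log2 ratio of 2.39 (-0.19 to 7.74), and was under 2-fold only once the DoubleTg count was set to 3. Tyms had 7 and 23 UMIs, a log2 ratio of -0.94 (-2.21 to 0.53). Neither was thus called higher, against 6.03% of 5519 genes, or lower, against 14.4%.

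Free RNA in the droplets reaches all cells, and no class here is certain to lack these genes. The mitotic share of 0 of 620 in DoubleTg fibroblast-like cells, at a median depth of 10381.5 UMIs, allows up to 0.484%, and the DoubleTg basal-like mitotic share of 0.348% is not above that level. A TripleTg cluster led by the neutrophil genes S100a8, S100a9 and Retnlg had 4 of 57 cells with 3 mitotic genes, but its cells at this depth went against that name. Krt8 and Krt18 were each detected in 98.3% of the 57 cells and Epcam in 93.0%, against 24.6% for S100a8, 21.1% for S100a9 and 14% for Retnlg. The cluster is therefore no reference for cells that do not divide. The 9 TripleTg seminal vesicle-like cells with 3 mitotic genes had a median of 9095 UMIs, against 42984 UMIs in the cells of that class with 3 genes of neither list. The part of free RNA or doublets in the shares was not tested.

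Luminal-like cells were also split by detection of the MET transgene. Of TripleTg luminal-like cells with an hMETtg UMI, 15 of 485 (3.09%, 1.74 to 5.05) had 3 or more mitotic genes, against 249 of 4206 (5.92%, 5.23 to 6.68) of those without. The S-phase shares were 4.54% (2.86 to 6.79) and 5.66% (4.98 to 6.4), with overlapping intervals. In DoubleTg the mitotic shares were 0.658% (0.413 to 0.995) of 3343 cells with and 1.03% (0.591 to 1.67) of 1550 cells without an hMETtg UMI, which also overlap. At this depth hMETtg was detected in 68.3% of DoubleTg luminal-like cells, against 9.74% of macrophage-like, 15% of endothelial-like and 13.4% of fibroblast-like cells, which should lack it. In TripleTg it was detected in 10.3% (9.48 to 11.3) of luminal-like cells, against 1.21% (0.395 to 2.81) of macrophage-like, 2.48% (0.681 to 6.24) of endothelial-like and 7.37% (4.27 to 11.7) of fibroblast-like cells. The luminal-like share thus lay above the first 2 of these classes and overlapped the last. Basal-like cells had an hMETtg UMI in 11.4% (9.58 to 13.5) of TripleTg and 6.95% of DoubleTg cells, so in TripleTg the luminal-like share was not above the basal-like one. The part of background RNA in the TripleTg split was not tested.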

How the data were processed

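Prostate cells were dissociated with collagenase and TrypLE and sequenced with 10x 3′ v3 chemistry. The authors made the deposited gene-by-cell UMI counts with Cell Ranger (version 6.0.2 in the submitters' processing notes, 6.1.1 in the header of the DoubleTg matrix). The DoubleTg cells left by the stated limits outnumber those the study states. Members and lists were chosen with earlier results of these data known, and the marker thresholds that name classes were set after the clusters were seen. Each library was clustered separately with scanpy 1.11.5 (Python 3.11.15) on 2000 variable genes, 20 components and 15 neighbours, at Leiden resolution 1, with cell-cycle genes left out. Doublets were not removed. Scrublet marked 273 DoubleTg and 0 TripleTg cells, and why it marked none in TripleTg was not tested. Cells were thinned at random without replacement to 5000 UMIs. Ratios were computed for genes with at least 30 UMIs over both libraries, with exact conditional binomial intervals, and a group under 3 UMIs was set to 3 for the count of 2-fold genes. Shares have exact Clopper-Pearson intervals at 95%, and a share of 0 has the limit that 3 cells give. All members were named, and of the further lists the 3 highest and the 3 lowest. The thinning and the ratios were tested on simulated data. Each genotype is 1 library, so no test was run. Alternatives were other depths, gene numbers, cell limits, classes and TMM scaling (edgeR 4.0.16, R 4.3.3).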

Additional observations from a re-analysis of the deposited data

Results flagged for a closer look

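The log2 ratio of TripleTg over DoubleTg had opposite signs in luminal-like and basal-like cells, with both counting intervals away from 0, for Mcm7 (1.11 and -0.74), for Pcna (0.65 and -0.40) and for the summed further replication genes (0.78 and -0.35). The last of these rested on 2 genes in basal-like cells, Nasp and Slbp, histone supply genes with 1611 of the 3017 DoubleTg UMIs of the list. Without them, a choice made after seeing the data, the basal-like log2 ratio was 0.098 (-0.022 to 0.22) and the luminal-like 0.88 (0.82 to 0.95), and of the 24 genes with 30 UMIs in basal-like cells 11 were higher and 13 lower. The difference between the classes was not tested, since each library is 1 sample.

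DoubleTg cells with 7000 detected genes or more, which the limits leave out, held a signal of both lists. Of 421 such cells under the mitochondrial limit, 8.31% (5.86 to 11.4) had 3 or more mitotic genes and 9.26% (6.67 to 12.5) had 3 or more S-phase genes at 5000 UMIs per cell. 3 or more epithelial markers were detected in 420 of them. The part of doublets in these cells was not tested. Kept DoubleTg epithelial-like cells with 6000 genes or more had 3 or more mitotic genes in 19 of 1011 cases (1.88%, 1.135 to 2.92).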

How the results depend on the processing

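Alternatives were run on the shares and summed ratios in epithelial-like cells. The limit of 6000 genes, the counting of cells of 7000 genes or more, the removal of the TripleTg luminal-like cluster of 459 cells (led by Apoc4 and Lap3, with Top2a among its leading genes) and of the highest Scrublet scores were chosen after seeing the data. The share with 3 or more mitotic genes in DoubleTg (0.652%) was 0.351% at 2000 UMIs per cell, 0.95% at 10000, 2.19% with all UMIs, 1.1% at 2 or more genes, 0.4% at 5 or more, 0.435% with a limit of 6000 genes and 1.1% with cells of 7000 genes or more counted. In TripleTg (4.83%) it was 2.66%, 6.64%, 10.9%, 6.44%, 3.22% and 3.97% in the same order up to the 6000 limit, 5.63% in luminal-like cells and 3.83% without that cluster. The S-phase share in DoubleTg (1.66%) was 0.351%, 5.4%, 27.7%, 7.6% and 0.43% over the depths and gene numbers, 1.14% in luminal-like cells and 2.11% with cells of 7000 genes or more counted. In TripleTg (4.75%) it was 1.48%, 10.7%, 32.8%, 11.4% and 1.78%, then 5.54% in luminal-like cells, 4.16% with the 6000 limit and 4.1% without that cluster. The summed mitotic log2 ratio (2.35) was 1.83 with cells of 7000 genes or more counted and 2.1 without that cluster. The summed S-phase log2 ratio (0.48) was 0.74 with all UMIs, 0.83 in luminal-like cells, 0.58 with TMM factors, 0.41 with cells of 7000 genes or more counted and 0.37 without that cluster. The cause of these shifts was not tested. The other 31 values moved by less than their counting interval. Over 390 values of single members none with an interval away from 0 changed sign, and the mitotic genes were above 0 in 220 of 220. Scrublet marked no TripleTg cell, so leaving out its calls was not run there. No paired analysis was possible because each genotype is 1 library. Depth limits the classes with few cells, where 0 cells still allows 3.41% in DoubleTg seminal vesicle-like and 1.88% in DoubleTg endothelial-like cells.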
